A study of Mus musculus with 18 samples.

Results

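The imprinted growth genes comprised 10 mouse genes, chosen by their Ensembl identifiers: Igf2, Igf2r, Grb10, Plagl1, Cdkn1c, Dlk1, Peg3, Mest, Meg3 and H19. They were 10 of the 51826 features counted in every library, and 9 of them were among the 13701 features with enough counts for a test. H19 had too few. Ribosome-protected fragments, the stretches of RNA that a ribosome shields from a nuclease, had been sequenced from cells of the E14 line, a mouse embryonic stem cell line. The groups were a Quaking knockout (KO), a Sam68 KO and wild type (WT) at day 10 of differentiation as embryoid bodies, and the same 3 lines at day 0 as stem cells, with 3 libraries in each of 6 groups. Quaking and Sam68 belong to the same family of RNA-binding proteins. All groups shared the E14 background and a cycloheximide treatment that holds ribosomes in place. How many clones stand behind each knockout line is not given in the sources used here, so the genotype and the history of a clone cannot be told apart.

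Imprinted genes are transcribed mainly from the copy inherited from 1 parent, and DNA methylation at CG dinucleotides of control regions marks which copy that is. Igf2, Plagl1, Dlk1, Peg3 and Mest are known to be expressed from the paternal copy, and Igf2r, Grb10, Cdkn1c, Meg3 and H19 from the maternal copy. Many of the paternally expressed genes promote fetal growth and many of the maternally expressed ones restrain it. The marks are known to be unstable in cultured mouse embryonic stem cells. The counts used here do not tell the parental copies apart, and no methylation was measured.

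The promoters of 3 members are shown with their CG dinucleotides, the letters at which DNA methylation can occur. They are that of Plagl1, the member with the largest knockout difference among the protein-coding members, and those of Grb10 and Igf2r, the members with the most CG in their windows. Each line gives the 250 bases before a RefSeq transcript start on GRCm38.p6, read 5′ to 3′ on the gene's strand, with CG in capitals. The Plagl1 window was chr10:13090582-13090831 on the plus strand, the Grb10 window chr11:12037421-12037670 on the minus strand and the Igf2r window chr17:12769707-12769956 on the minus strand.
Plagl1: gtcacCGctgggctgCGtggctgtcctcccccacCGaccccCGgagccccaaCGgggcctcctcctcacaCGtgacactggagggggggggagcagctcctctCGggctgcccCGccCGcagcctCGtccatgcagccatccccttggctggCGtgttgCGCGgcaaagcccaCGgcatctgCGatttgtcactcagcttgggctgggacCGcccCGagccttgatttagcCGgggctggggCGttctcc
Grb10: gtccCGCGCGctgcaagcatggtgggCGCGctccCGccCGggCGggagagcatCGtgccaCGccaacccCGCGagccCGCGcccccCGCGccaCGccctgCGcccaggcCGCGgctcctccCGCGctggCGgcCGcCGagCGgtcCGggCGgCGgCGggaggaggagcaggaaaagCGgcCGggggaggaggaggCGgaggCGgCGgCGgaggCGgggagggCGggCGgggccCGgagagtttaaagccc
Igf2r: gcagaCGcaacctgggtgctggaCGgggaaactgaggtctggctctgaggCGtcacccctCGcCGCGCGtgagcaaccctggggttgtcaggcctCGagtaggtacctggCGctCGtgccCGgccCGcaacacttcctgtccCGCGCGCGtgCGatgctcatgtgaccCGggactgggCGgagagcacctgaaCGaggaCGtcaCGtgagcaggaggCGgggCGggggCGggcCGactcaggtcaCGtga
The Plagl1 window held 19 CG, and 19.7% of the 32851 windows in the RefSeq promoter table held at least as many. Grb10 had 40 CG, a number reached by 1.31% of windows, and Igf2r had 27, reached by 8.56%. The median over all windows was 6. Windows were given for 8 members, 15 windows in all. The hexamer TGCCGC, the core of the sequence bound by ZFP57, a protein that protects imprints, was searched on both strands. It matched 4 of the 15 member windows, in Plagl1, Meg3 and 2 overlapping windows of Mest, and 8.68% of all windows. A match of letters is not a bound site, and whether any of these windows lies in a region that carries an imprint was not tested.

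Levels are given as CPM, in which each count is divided by its library's TMM-adjusted size without regard to gene length, so they are not compared between genes of different length. Differences are log2 fold changes from edgeR's quasi-likelihood test, with p-values adjusted by Benjamini and Hochberg over the 13701 features, and a gene was called below 0.05. Totals ranged from 988210 to 10646768 counts per library. In Sam68 KO day 10 replicates 2 and 3 and in WT day 10 replicate 3, the 10 largest features took 60.2% to 70.4% of the counts, against 24.6% to 30.2% in the other 6 libraries of day 10 and 7.01% to 21.3% at day 0. The sample descriptions carry MIX numbers 1 to 3, taken here as pools. Quaking KO and WT of day 0 shared a pool, as did Quaking KO and Sam68 KO of day 10, and as did Sam68 KO of day 0 and WT of day 10. Only Quaking KO against WT at day 0 and Sam68 KO against Quaking KO at day 10 therefore lay within a pool. In every other comparison the pool and the group cannot be told apart. The files pair no identifier with a gene name, so the markers of stem cells and of embryoid body cell types, the knocked-out genes and other imprinted genes were not checked here. In such bulk libraries, more cells of a type and more RNA per cell cannot be told apart, and a footprint count reflects the amount of an mRNA as well as its translation.

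Nearly all of these genes were higher at day 10 than at day 0 in every line. In Quaking KO 8 of the 9 tested members rose, beside 34.7% of all features tested that were called higher. In Sam68 KO 8 rose, beside 34.8% of features, and in WT all 9 rose, beside 34.9%. The members' median log2 fold change was 3.17 in Quaking KO, 4.41 in Sam68 KO and 4.06 in WT, beside medians of 0.11, 0.11 and 0.10 over all features of the same lines. The exceptions were Meg3 in Quaking KO and Cdkn1c in Sam68 KO. The 10 genes together took 1.52% to 1.65% of a library's raw counts in Quaking KO embryoid bodies. They took 0.529% to 0.973% in Sam68 KO and 0.413% to 1.02% in WT embryoid bodies, and 0.103% to 0.158% in all libraries of day 0. These are shares of raw totals, not of TMM-adjusted sizes. The lowest at day 10 were 0.555% and 0.529% in Sam68 KO replicates 2 and 3 and 0.413% in WT replicate 3. In those libraries 10 features took most of the counts, so less was left for all other features.

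At day 10 most calls lay between Quaking KO and the other lines. Against WT, 5 of the 9 members were called higher in Quaking KO embryoid bodies (Plagl1, Cdkn1c, Dlk1, Peg3 and Grb10) and 1 lower (Meg3), where 23.9% of all features were called, 11.1% higher and 12.8% lower. That split of all features depended on the scaling, with 1523 of 3279 calls higher here and 1820 of 3333 under RLE. The 5 genes called higher were also the ones whose 3 Quaking KO libraries all lay above the 3 of WT, as 15.5% of features did. The members' median difference was 0.60, and that of all features -0.03. By expressed copy, 3 of the 5 paternally expressed members and 2 of the 4 tested maternally expressed ones were higher. Sam68 KO against WT at day 10 gave 1 call, Plagl1, at a background of 0.175% of features called, with a median of 0.18 over members and -0.01 over all features. In 4 members (Plagl1, Cdkn1c, Grb10 and Mest) the Sam68 KO libraries all lay above those of WT, as 6.18% of features did.

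Between the knockouts, within a pool, 4 members were lower in Sam68 KO than in Quaking KO at day 10 (Dlk1, Plagl1, Peg3 and Cdkn1c) and Igf2r was higher, where 23.7% of features were called, 10.6% lower and 13% higher. In 6 members every Sam68 KO library lay below every one of Quaking KO, as 15.9% of features did, and in 1 above, as 17.8% did. The median was -0.50 over members and 0.03 over all features. These comparisons share libraries: the Quaking KO values of day 10 enter this one and that against WT. The plot of levels in each library shows both patterns.

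**Figure D1:**
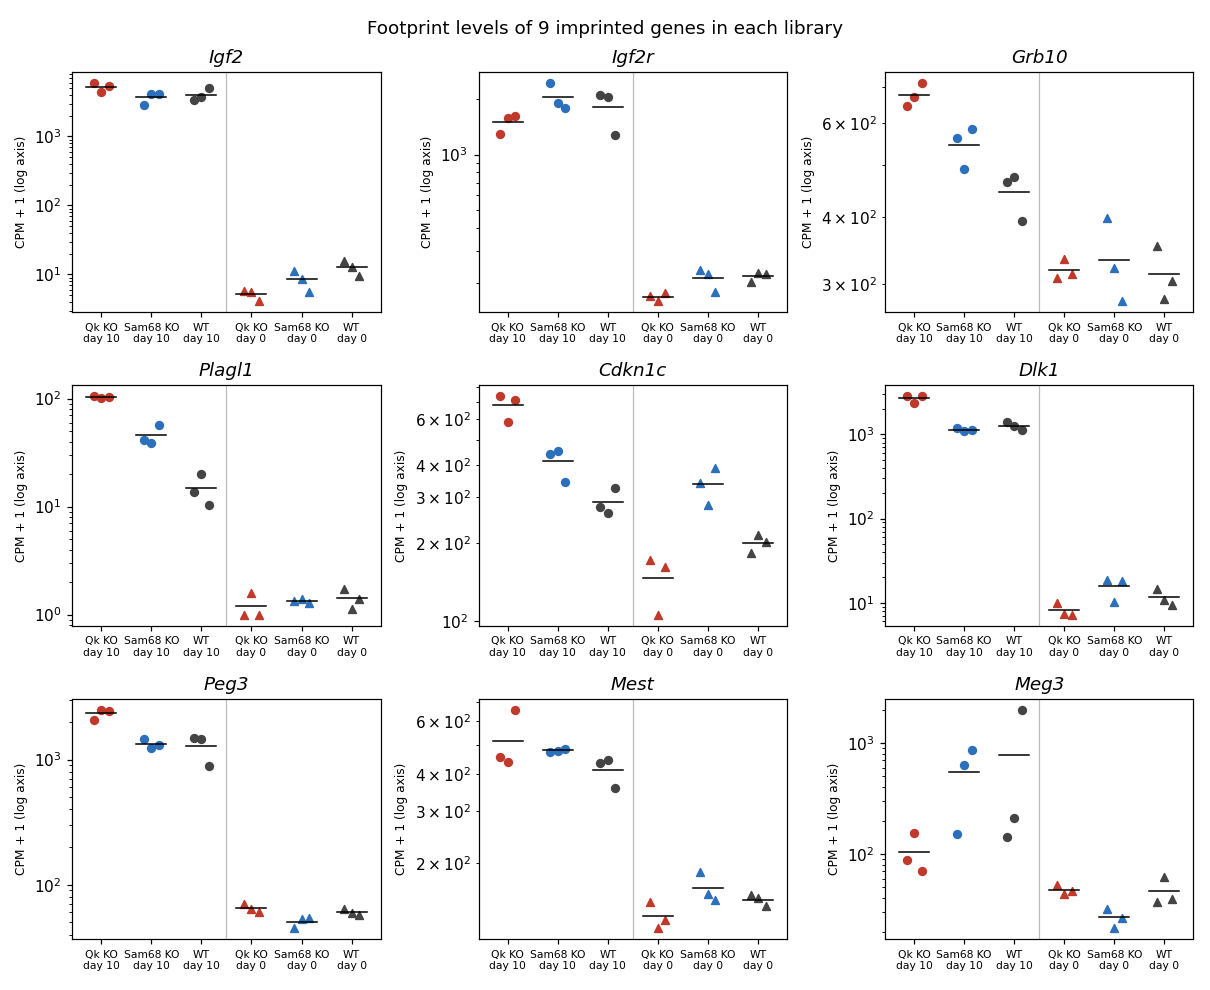
CPM plus 1 on a log axis for the 9 tested genes in each of 18 libraries, with circles for day 10, triangles for day 0 and a line at the group mean (Qk KO, Quaking KO). Plagl1, Dlk1, Peg3, Cdkn1c and Grb10 show the 3 Quaking KO libraries of day 10 above all others, and Meg3 shows 3 libraries of day 10 far above the rest.

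Igf2 (ENSMUSG00000048583.16) encodes a secreted growth factor of the fetus and lies on chromosome 7 (142650768 to 142666816 on GRCm38.p6, like all positions here). At day 10 it had 5990, 4420 and 5330 CPM in the Quaking KO libraries, 2850, 4120 and 4130 CPM in those of Sam68 KO and 3330, 3740 and 5030 CPM in those of WT. At day 0 it had 4.75, 4.58 and 3.11 CPM in Quaking KO, 10.4, 7.60 and 4.56 CPM in Sam68 KO and 14.9, 11.7 and 8.66 CPM in WT. Igf2 was thus low in stem cells, with 8 to 16 counts in a Quaking KO library, 31 to 76 in one of Sam68 KO and 84 to 112 in one of WT, and it was among the most strongly induced features: 0.438% of features had a log2 fold change over time as large in Quaking KO, 0.307% in Sam68 KO and 0.547% in WT. The log2 fold change, day 10 over day 0, was 10.31 in Quaking KO (SE 0.40, adjusted p = 8.03e-12), 8.95 in Sam68 KO (SE 0.37, adjusted p = 1.51e-11) and 8.43 in WT (SE 0.36, adjusted p = 2.37e-11).

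Quaking KO and WT stood further apart in Igf2 at day 0 than at day 10. At day 0 all 3 Quaking KO libraries lay below all 3 of WT, as 15.5% of features did, and the log2 fold change was -1.50 (SE 0.33, adjusted p = 0.0835), within a pool. It was not called, but a fit of only the compared groups called it (-1.41, adjusted p = 0.0433), and so did the fit of all groups without Sam68 KO day 0 replicate 1 (-1.52, adjusted p = 0.0216), without Sam68 KO day 0 replicate 3 (-1.51, adjusted p = 0.0128) and without WT day 0 replicate 3 (-1.70, adjusted p = 0.0348). It was called too with no filter on low counts (-1.45, adjusted p = 1.27e-05) and by DESeq2 (-1.42, adjusted p = 0.0137). Of the 18 edgeR fits that each left out 1 library, only those 3 called it, and adjusted p reached 0.36. It was not called under RLE or upper quartile scaling, with the replicate block or after thinning, where 0 members were called. The sum over the 3 Quaking KO libraries was 34 counts. At day 10 both knockouts overlapped WT, with 0.38 for Quaking KO against WT (95% interval -0.18 to 0.94) and -0.12 for Sam68 KO against WT (-0.68 to 0.43). Sam68 KO lay below Quaking KO without overlap, by -0.50 (-1.06 to 0.05, adjusted p = 0.186). That difference was called by DESeq2 (-0.60, adjusted p = 0.0347), with no filter (-0.62, adjusted p = 0.0171) and in a fit of only the compared groups (-0.51, adjusted p = 0.0473). The change over time was larger in Quaking KO than in WT by 1.88 (SE 0.42, adjusted p = 0.0106), and with every library thinned to the smallest total it was 1.96 with adjusted p = 0.075. The large change over time in that line went with a low level at day 0.

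Igf2r (ENSMUSG00000023830.13), the receptor that carries IGF2 to lysosomes and so clears it, lies on chromosome 17 (12682406 to 12769706). It had 1300, 1590 and 1630 CPM in Quaking KO, 2460, 1920 and 1800 CPM in Sam68 KO and 2120, 2060 and 1270 CPM in WT embryoid bodies. At day 0 the levels were 168, 158 and 174 CPM in Quaking KO, 233, 222 and 178 CPM in Sam68 KO and 201, 224 and 223 CPM in WT. Over time it rose by 3.17 in Quaking KO, 3.29 in Sam68 KO and 3.07 in WT (SE 0.17 each), and the difference of the change between Quaking KO and WT was 0.10 with an interval of -0.37 to 0.57.

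At day 10 Igf2r was the called member that ran the other way between the knockouts, 0.45 higher in Sam68 KO than in Quaking KO (SE 0.16, adjusted p = 0.0433), with no overlap of libraries. The call was lost without any 1 of 12 libraries: the 3 of Quaking KO and replicates 1 and 2 of Sam68 KO at day 10, and, at day 0, the 3 of Quaking KO, the 3 of WT and replicate 2 of Sam68 KO. Adjusted p then ran from 0.0502 to 0.284, and the value was 0.29 without Sam68 KO day 10 replicate 1. It was lost too by DESeq2 (0.36, adjusted p = 0.125), under RLE (0.36, adjusted p = 0.111) or upper quartile scaling (0.41, adjusted p = 0.07), with no filter (0.37, adjusted p = 0.309) and after thinning (0.38, adjusted p = 0.0977). Without the 3 libraries of high top share, which left a lone Sam68 KO library of day 10, the difference was 0.72. Against WT the Quaking KO difference was -0.27 (SE 0.16, adjusted p = 0.235), with overlap. Without WT day 10 replicate 3, the library with the fewest scaled counts, it was -0.49 (adjusted p = 0.0114), and without the 3 libraries of high top share -0.48 (adjusted p = 0.00658). An antisense RNA, Airn, starts within Igf2r, and whether the counting used strand is not given, so reads from the 2 cannot be told apart.

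Grb10 (ENSMUSG00000020176.17), an adaptor protein that dampens signalling from the insulin and IGF1 receptors, lies on chromosome 11 (11930499 to 12037428). It had 644, 671 and 712 CPM in Quaking KO, 561, 492 and 583 CPM in Sam68 KO and 465, 475 and 393 CPM in WT embryoid bodies. In stem cells it had 307, 334 and 312 CPM in Quaking KO, 397, 321 and 278 CPM in Sam68 KO and 353, 281 and 303 CPM in WT. The order at day 10 was Quaking KO, Sam68 KO and WT with no overlap between neighbours, and at day 0 the lines overlapped. Grb10 was 0.60 higher in Quaking KO than in WT at day 10 (SE 0.13, adjusted p = 0.00173). Sam68 KO lay between, 0.29 above WT (adjusted p = 0.712) and -0.31 relative to Quaking KO (adjusted p = 0.0968). That between the knockouts was called by DESeq2 (-0.40, adjusted p = 0.0181) and under RLE scaling (-0.40, adjusted p = 0.0349). Its change over time was among the smallest of the members, 1.09 in Quaking KO, 0.72 in Sam68 KO and 0.51 in WT, all called. With no filter on low counts the last 2 were 0.47 (adjusted p = 0.0544) and 0.28 (adjusted p = 0.342). The Quaking KO change over time exceeded that of WT by 0.58 (SE 0.19, adjusted p = 0.0566), which was called without Quaking KO day 10 replicate 1 (0.64, adjusted p = 0.0465) or without Sam68 KO day 0 replicate 1 or 3 (adjusted p = 0.0441 and 0.0434), and by DESeq2 (0.55, adjusted p = 0.0474).

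Plagl1 (ENSMUSG00000019817.18) encodes a zinc finger transcription factor that slows the cell cycle and is known to regulate other imprinted genes, and it lies on chromosome 10 (13090832 to 13131694). At day 10 it had 104, 99.3 and 103 CPM in Quaking KO, 40.4, 38.1 and 56.3 CPM in Sam68 KO and 12.7, 19.2 and 9.36 CPM in WT. The 3 lines formed 3 separate steps with no overlap. The 9.36 CPM of WT replicate 3 is 4 counts, near that library's floor of 7.02 CPM at 3 counts. Plagl1 was 2.76 higher in Quaking KO than in WT (SE 0.24, adjusted p = 1.12e-08), a mean of 102 ± 2.66 against 13.8 ± 5.00 CPM (SD, n = 3 each), and 1.66% of features had as large a difference. It was 1.54 higher in Sam68 KO than in WT (SE 0.25, adjusted p = 0.00281), which was lost without WT day 10 replicate 1 (1.36, adjusted p = 0.0809), in a fit of only the compared groups (1.58, adjusted p = 0.0653) and after thinning (1.37, adjusted p = 0.064). Within a pool it was -1.22 in Sam68 KO relative to Quaking KO (SE 0.22, adjusted p = 0.000171).

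In stem cells Plagl1 was close to undetected. Its counts at day 0 summed to 1 over the 3 Quaking KO libraries, to 8 over those of Sam68 KO and to 11 over those of WT, against 868, 463 and 176 at day 10. The ratio of scaled counts, day 10 over day 0, was 846 in Quaking KO (95% counting interval 151 to 33400), 117 in Sam68 KO (58.9 to 273) and 37.1 in WT (20.2 to 75.7). Such intervals cover counting error only. The change over time was larger in Quaking KO than in WT by 4.33 (SE 0.97, adjusted p = 0.00473), a value that rests on 1 count at day 0 and was 6.94 (adjusted p = 0.00221) without Quaking KO day 0 replicate 2, the library that holds it. After thinning it was 2.60 (adjusted p = 0.589). No difference between the lines was detectable at day 0 at this depth.

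Cdkn1c (ENSMUSG00000037664.13), the gene of the cyclin-dependent kinase inhibitor p57, lies on chromosome 7 (143458339 to 143461059). It had 735, 584 and 713 CPM in Quaking KO, 440, 453 and 342 CPM in Sam68 KO and 274, 261 and 325 CPM in WT embryoid bodies. At day 0 the levels were 171, 105 and 161 CPM in Quaking KO, 340, 280 and 388 CPM in Sam68 KO and 182, 214 and 201 CPM in WT. The order of the lines turned between the days. Sam68 KO was the highest line at day 0 and Quaking KO the lowest, while at day 10 Quaking KO was the highest, and no neighbours overlapped on either day.

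At day 10 Cdkn1c was 1.25 higher in Quaking KO than in WT (SE 0.17, adjusted p = 4.82e-06), 0.53 in Sam68 KO relative to WT (SE 0.17, adjusted p = 0.336) and 0.72 lower on the log2 scale in Sam68 KO than in Quaking KO (log2 fold change -0.72, SE 0.17, adjusted p = 0.00227). With the 3 libraries of high top share left out, so that a lone Sam68 KO library of day 10 stood against Quaking KO, the last was -0.61 (adjusted p = 0.0605). At day 0 it was 0.75 higher in Sam68 KO than in WT (SE 0.16, adjusted p = 0.0166), the 1 call among 9 members at a background of 1.26% of features. That call was lost without Sam68 KO day 0 replicate 3 (0.64, adjusted p = 0.145) and without replicate 1, 2 or 3 of WT day 0 (adjusted p = 0.111, 0.0565 and 0.0923). Sam68 KO exceeded Quaking KO at day 0 by 1.20 (SE 0.17, adjusted p = 6.67e-05), where 3.31% of features were called. Over time Cdkn1c changed by 2.21 in Quaking KO (adjusted p = 5.85e-11), by 0.30 in Sam68 KO (interval -0.04 to 0.63) and by 0.52 in WT (SE 0.17, adjusted p = 0.00929). The WT call was lost without WT day 10 replicate 3 (0.32, adjusted p = 0.12), WT day 10 replicate 1 (0.41, adjusted p = 0.0715), WT day 0 replicate 3 (0.45, adjusted p = 0.0517), WT day 0 replicate 1 (0.44, adjusted p = 0.05) or Sam68 KO day 10 replicate 2 (0.39, adjusted p = 0.0507), and with no filter on low counts (0.26, adjusted p = 0.378). The excess of the Quaking KO change over the WT change, 1.70 (SE 0.24, adjusted p = 3.63e-05), kept its call without any 1 library.

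Dlk1 (ENSMUSG00000040856.17), a membrane protein related to Notch ligands that holds back fat cell formation, lies on chromosome 12 (109452485 to 109463336). It had 2840, 2360 and 2840 CPM in Quaking KO, 1200, 1090 and 1140 CPM in Sam68 KO and 1400, 1260 and 1120 CPM in WT embryoid bodies. The day 0 libraries had 8.92, 6.29 and 6.22 CPM in Quaking KO, 17.6, 9.10 and 17.1 CPM in Sam68 KO and 13.6, 9.74 and 8.35 CPM in WT. Sam68 KO and WT overlapped at day 10 and Quaking KO lay above both. Dlk1 was 1.09 higher in Quaking KO than in WT (SE 0.20, adjusted p = 0.000342), -0.14 in Sam68 KO relative to WT (interval -0.55 to 0.27) and -1.23 in Sam68 KO relative to Quaking KO (SE 0.20, adjusted p = 9.49e-05), within a pool.

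Like Igf2, Dlk1 was very low in stem cells, and its log2 fold change over time was 8.53 in Quaking KO (SE 0.28), 6.30 in Sam68 KO (SE 0.25) and 6.90 in WT (SE 0.25). That of Quaking KO exceeded that of WT by 1.63 (SE 0.31, adjusted p = 0.00172). At day 0 Dlk1 was 1.00 higher in Sam68 KO than in Quaking KO (SE 0.24, adjusted p = 0.02). This call was lost without replicate 2 or 3 of Quaking KO day 0 (0.94 and 0.90, adjusted p = 0.0854 and 0.124) or replicate 1 or 3 of Sam68 KO day 0 (0.85 and 0.87, adjusted p = 0.0658 and 0.0822), and under RLE (0.92, adjusted p = 0.0559) or upper quartile scaling (0.91, adjusted p = 0.0637). A fit of only the compared groups (0.90, adjusted p = 0.127) and one without the 3 libraries of high top share (0.99, adjusted p = 0.0692) lost it too.

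Peg3 (ENSMUSG00000002265.16), a large zinc finger protein, lies on chromosome 7 (6703892 to 6730462). It had 2060, 2500 and 2450 CPM in Quaking KO, 1450, 1230 and 1310 CPM in Sam68 KO and 1490, 1450 and 883 CPM in WT embryoid bodies. Its levels in stem cells were 68.6, 62.4 and 60.0 CPM in Quaking KO, 44.0, 51.9 and 53.6 CPM in Sam68 KO and 62.5, 58.9 and 55.8 CPM in WT, so that only the Sam68 KO libraries lay apart, below the rest. At day 10 Peg3 was 0.87 higher in Quaking KO than in WT (SE 0.15, adjusted p = 0.000123), 0.06 in Sam68 KO relative to WT (interval -0.25 to 0.37) and -0.81 in Sam68 KO relative to Quaking KO (SE 0.15, adjusted p = 0.000256). The change over time was 5.20 in Quaking KO, 4.74 in Sam68 KO and 4.44 in WT. Quaking KO exceeded WT by 0.76 (SE 0.22, adjusted p = 0.0258), a call lost without replicate 2 or 3 of Quaking KO day 0 (adjusted p = 0.0555 and 0.0784), replicate 2 or 3 of Quaking KO day 10 (adjusted p = 0.055 and 0.0592) or replicate 1 or 2 of WT day 0 (adjusted p = 0.0708 and 0.0528). It was lost too with no filter (0.73, adjusted p = 0.165), in a fit of only the compared groups (0.73, adjusted p = 0.113) and after thinning (0.62, adjusted p = 0.112).

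Mest (ENSMUSG00000051855.15), a protein of the alpha/beta hydrolase fold, lies on chromosome 6 (30733506 to 30748466). It had 454, 438 and 656 CPM in Quaking KO, 472, 478 and 485 CPM in Sam68 KO and 433, 443 and 358 CPM in WT embryoid bodies, against 147, 120 and 128 CPM in Quaking KO, 186, 157 and 149 CPM in Sam68 KO and 155, 152 and 143 CPM in WT at day 0. None of its 6 differences between lines exceeded 0.32 in size. The change over time was 1.97 in Quaking KO, 1.54 in Sam68 KO and 1.46 in WT. At day 10 Quaking KO stood 0.32 from WT (interval 0.02 to 0.62, adjusted p = 0.109) with overlap, and without Quaking KO day 10 replicate 2 it was 0.44 (adjusted p = 0.0485). It was called by DESeq2 (0.39, adjusted p = 0.0414) and under RLE scaling (0.40, adjusted p = 0.0468). Sam68 KO stood 0.21 from WT (interval -0.09 to 0.51).

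**Figure D2:**
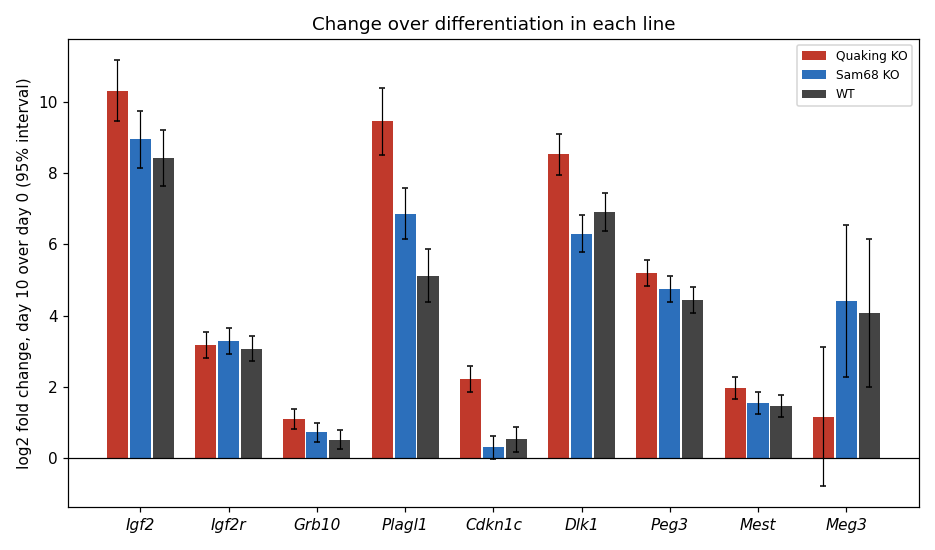
Log2 fold change, day 10 over day 0, of the 9 tested genes in Quaking KO, Sam68 KO and WT with 95% intervals from the fit. The bars of Quaking KO are the highest for Igf2, Plagl1, Dlk1, Peg3, Cdkn1c, Mest and Grb10, and the Plagl1 bar of Quaking KO rests on 1 count at day 0.

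The lines thus differed in how far the genes moved. For 5 of 9 members the change over time was larger in Quaking KO than in WT (Plagl1, Igf2, Cdkn1c, Dlk1 and Peg3), where 8.88% of features had a called interaction, 5.12% higher. The median interaction was 0.76 over members and 0.07 over all features. For Sam68 KO against WT edgeR called 0 of 9 interactions at a background of 0.431%, 2 members had an unadjusted p under 0.05 (Plagl1 and Dlk1), as 8.98% of all features did, and DESeq2 called 0. At day 0 edgeR called 0 of 9 members between Quaking KO and WT, at a background of 0.365% of features, 4 had an unadjusted p under 0.05 (Igf2, Cdkn1c, Igf2r and Dlk1, all lower in Quaking KO), as 6.84% of all features did, and DESeq2 called 1, Igf2. The median was -0.37 over members and -0.09 over all features.

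**Figure D3:**
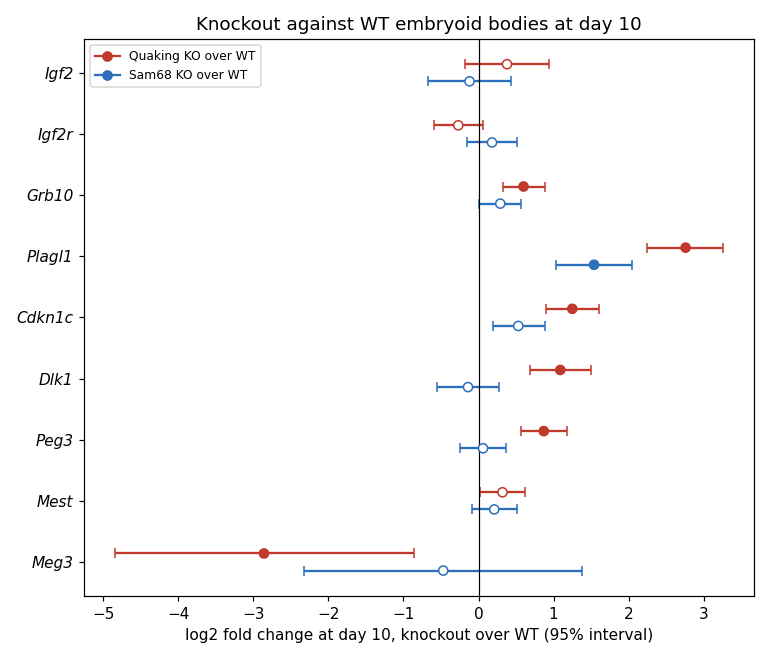
Log2 fold change at day 10 of each knockout over WT for the 9 tested genes, with 95% intervals, where filled points passed the adjusted threshold of 0.05. Quaking KO over WT has 5 filled points above 0 and Meg3 below it, and Sam68 KO over WT has 1, Plagl1.

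Meg3 (ENSMUSG00000021268.17) is a long noncoding RNA of the same imprinted domain as Dlk1, expressed from the opposite parental copy, and lies on chromosome 12 (109540996 to 109571729). Since it encodes no known protein, its counts in these libraries are not a measure of translation. At day 10 it had 86.9, 155 and 69.3 CPM in Quaking KO, 150, 632 and 867 CPM in Sam68 KO and 141, 209 and 1990 CPM in WT. In the stem cells it had 51.1, 42.9 and 45.7 CPM in Quaking KO, 31.2, 20.5 and 25.8 CPM in Sam68 KO and 35.7, 61.7 and 38.3 CPM in WT. At day 0 Meg3 was -0.86 in Sam68 KO relative to Quaking KO (SE 0.90, adjusted p = 0.742) and -0.81 relative to WT (SE 0.87, adjusted p = 0.887). The first was called in a fit of only the compared groups (-0.96, adjusted p = 0.00428). The 3 highest libraries, Sam68 KO replicates 2 and 3 and WT replicate 3 of day 10, are the same 3 in which 10 features took most of the counts, and the part of that in the Meg3 result was not tested. The other 6 libraries of day 10 lay between 69.3 and 209 CPM.

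Meg3 was called lower in Quaking KO than in WT at day 10 (-2.86, SE 0.92, adjusted p = 0.0397), with overlap of the libraries. Without WT day 10 replicate 3 the value was -0.75 (adjusted p = 0.394), and without all 3 libraries of high top share it was -0.74 (adjusted p = 0.155). The call held only without Sam68 KO day 10 replicate 1 or 3 or WT day 10 replicate 1 or 2, and was lost without any of the other 14 libraries (adjusted p = 0.0501 to 0.394). It was lost too with no filter (-2.65, adjusted p = 0.0858), in a fit of only the compared groups (-2.91, adjusted p = 0.268), after thinning (-2.74, adjusted p = 0.0589) and with the replicate block (-2.45, adjusted p = 0.0931). Between the knockouts it was 2.39 in Sam68 KO relative to Quaking KO (SE 0.90, adjusted p = 0.0745), which was called without Sam68 KO day 10 replicate 1 (2.82, adjusted p = 0.046), WT day 10 replicate 1 (2.37, adjusted p = 0.0438) or WT day 10 replicate 3 (2.36, adjusted p = 0.00748), and by DESeq2 (2.31, adjusted p = 0.0238). Over time Meg3 rose by 4.41 in Sam68 KO (SE 0.98, adjusted p = 0.00152) and by 4.06 in WT (SE 0.96, adjusted p = 0.0024), the WT value being 1.85 without WT day 10 replicate 3 (adjusted p = 0.0136) and 4.16 in a fit of only the 2 groups (adjusted p = 0.0547). Leaving out the 3 libraries of high top share left a lone Sam68 KO library of day 10. These rises were then 2.56 in Sam68 KO and 1.93 in WT (adjusted p = 0.000424). In Quaking KO it was 1.16 (interval -0.79 to 3.11), and it was called without those 3 libraries (1.18, adjusted p = 0.0095) and in a fit of only the compared groups (1.20, adjusted p = 0.00255). The difference of the change over time between Quaking KO and WT was -2.90 (SE 1.25, adjusted p = 0.192).

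**Figure D4:**
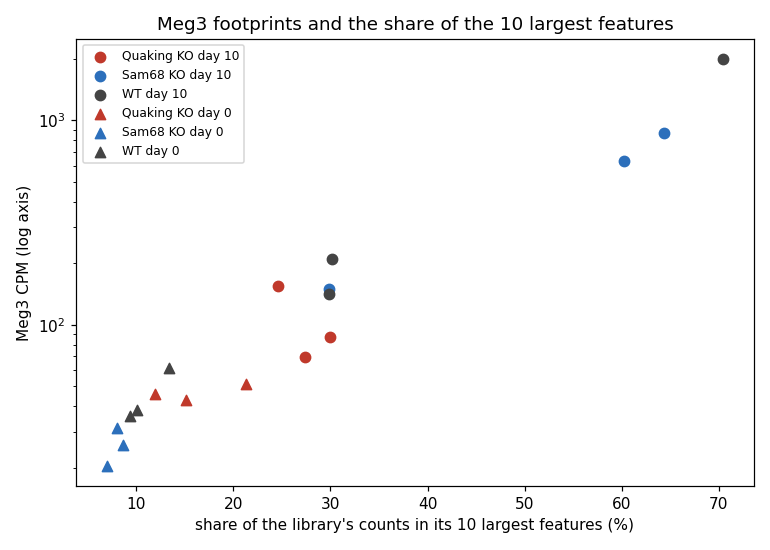
Meg3 CPM on a log axis against the percent of a library's counts in its 10 largest features, for 18 libraries. The 3 libraries with 60.2% to 70.4% in those features hold the 3 highest Meg3 values, 632 to 1990 CPM.

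Within a library, the ratio of Meg3 to Dlk1 counts needs no scaling. On a log2 scale with 1 count added to each gene, it was -5.02, -3.93 and -5.35 in Quaking KO, -3, -0.78 and -0.40 in Sam68 KO and -3.31, -2.59 and 0.83 in WT embryoid bodies. At day 0 it averaged 2.65 ± 0.17 in Quaking KO, 0.86 ± 0.29 in Sam68 KO and 2.07 ± 0.64 in WT (SD, n = 3 each). Meg3 counts thus exceeded those of Dlk1 in every library of day 0, and at day 10 the reverse held in all libraries but WT replicate 3. These are raw counts of genes of different length, so which gene has more counts does not rank their levels. By this ratio the 3 Quaking KO libraries lay below all others at day 10. The mean difference was -3.08 for Quaking KO minus WT and 3.37 for Sam68 KO minus Quaking KO, each with an exact two-sided permutation p of 0.1, the smallest that 3 against 3 allows, and 0.3 after adjustment over 6 such tests. It was 0.29 for Sam68 KO minus WT (exact permutation p = 0.9). Without the 3 libraries of high top share Quaking KO minus WT was -1.82 and Sam68 KO minus Quaking KO 1.76. The latter came from a lone Sam68 KO library of day 10.

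H19 (ENSMUSG00000000031.15), a long noncoding RNA of the same domain as Igf2 and expressed from the opposite copy, lies on chromosome 7 (142575530 to 142578146). It had 0 to 6 counts in a library and 23 in all 18. The sums were 3 in Quaking KO, 5 in Sam68 KO and 8 in WT at day 10, and 0, 5 and 2 in Quaking KO, Sam68 KO and WT at day 0. The 5 of Sam68 KO at day 0 lay in 1 library. The 0 of Quaking KO at day 0 allows up to 0.36 CPM over the group, at 3 counts. Differences in H19 were not detectable at this depth, and the log2 ratio of H19 to Igf2 counts, which at so few H19 counts follows the Igf2 count, differed between lines at day 10 with exact permutation p of 0.3, 0.4 and 0.6 (Quaking KO minus WT -1.26, Sam68 KO minus WT -0.64, Sam68 KO minus Quaking KO 0.62).

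Across the 6 group means of log2 CPM, each centred on its own mean, the members most like each other were Cdkn1c and Grb10 (root mean square difference 0.40). Mest was nearest to Grb10, at 0.45. The other pairs that were each other's nearest member were Peg3 and Plagl1 at 0.63, Meg3 and Igf2r at 0.70 and Igf2 and Dlk1 at 1.03. Other features were nearer in every case. The closest to Igf2 was ENSMUSG00000026185.8 at 0.43, and the closest to Plagl1 was ENSMUSG00000009654.4 at 0.31. Such likeness is a description over 6 groups that share libraries and pools.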

How the data were processed

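Ribosome-protected fragments were measured in 18 libraries, 6 groups of 3, grouped and numbered by their titles. The deposited files hold raw counts per feature, as whole numbers for 51826 versioned Ensembl identifiers, 1 file per library. Per the submitters' processing notes, the tools were STAR 2.5.3a, Bowtie2 and bcl2fastq 2.17.1.14, and the builds mm10 and GRCm38. Which program and annotation counted the reads, and whether it used strand, is not given in the sources used here. Per the labels' protocols, lysates were digested with nuclease and pelleted through sucrose, and the labels call the replicates biological triplicates. Pools came from the sample descriptions.

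Differences were tested with the quasi-likelihood F test of edgeR 4.0.16 under R 4.3.3 (TMM scaling, filterByExpr by group, robust, two-sided) in 1 fit of all 18 libraries with a mean per group. The filter kept 13701 of 33167 features with any count. The 11 comparisons shared a common biological coefficient of variation of 0.229. Standard errors are the log2 fold change over the root of F. Errors of CPM are SD over 3 libraries, and depth limits a library of the smallest scaled size to 7.02 CPM at a floor of 3 counts. PCR reads lack molecular identifiers, so floors and counting intervals (95%) describe counting error alone. Every pair of replicates differed by more than sampling noise. The test was also run on simulated counts, but no error rate from that run is given here.

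Names and positions came from RefSeq on GRCm38.p6. All 10 member symbols matched, but the table holds 0 Ensembl identifiers, so the lists fixed by symbol (cell type markers, other imprinted genes, IGF pathway, imprint maintenance and the knocked-out genes) were not used. All 10 members are named, and for likeness the nearest member and at most 2 identifiers. The members and lists were chosen with earlier results of these data known.

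As alternatives, scaling was done by RLE or by the upper quartile, and further settings were DESeq2 1.42.0, no filter on low counts, fits of the groups compared alone, the replicate number as a block, an additive model with a pool term, thinning to 988210 counts, leaving out each library, and leaving out the 3 libraries of high top share (over 40% of counts in 10 features). CPM values alone were also scaled by plain library totals. Under those totals 36 CPM results were marked as moved and 18 as the same. Under RLE scaling 3 moved and 51 did not, and under upper quartile scaling 0 moved and 54 did not. The CPM levels given here thus depend on the TMM adjustment. In WT day 10 replicate 3, for example, 1175919 counts became an adjusted size of 427178. Of 27 same-numbered pairs of libraries, 4 had correlated deviations from the group means over 0.1 (range -0.20 to 0.51), so the numbers were not taken as pairs.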

Additional observations from a re-analysis of the deposited data

Results flagged for a closer look

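For 5 genes the change over time differed between Quaking KO and WT by edgeR's test of the interaction itself, with positive values meaning a larger change in Quaking KO. The difference was 4.33 for Plagl1 (SE 0.97, adjusted p = 0.00473), 1.88 for Igf2 (SE 0.42, adjusted p = 0.0106), 1.70 for Cdkn1c (SE 0.24, adjusted p = 3.63e-05), 1.63 for Dlk1 (SE 0.31, adjusted p = 0.00172) and 0.76 for Peg3 (SE 0.22, adjusted p = 0.0258). Of all features, 8.88% had a called interaction. The Plagl1 value rests on 1 count at day 0 in Quaking KO. With every library thinned to the smallest total, the edgeR calls of 3 genes were lost. These were Plagl1 (2.60, adjusted p = 0.589), Igf2 (1.96, adjusted p = 0.075) and Peg3 (0.62, adjusted p = 0.112), and 2 members kept theirs. Quaking KO and WT shared a pool at day 0 and not at day 10, so the pool and the interaction cannot be told apart.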

How the results depend on the processing

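Of 2652 comparisons of a single gene's result with an alternative, 2522 stayed on their side of the threshold, 80 lost a call, 35 gained one and 15 with a call on either side of the comparison reversed, all 15 in the additive pool model. Of the 2522, 49 values that were not called turned sign, 13 in the pool model and 36 in other alternatives, 23 of these with 1 library left out. The pool model has as many terms as groups, so its Quaking KO and Sam68 KO minus Quaking KO effects are the within-pool differences of 1 day each. It reversed Cdkn1c (-0.45), Dlk1 (-0.54), Plagl1 (-1.57) and Meg3 (0.05) in Quaking KO against WT at day 10, and Cdkn1c (-1.16), Peg3 (-0.70) and Plagl1 (-2.79) in Sam68 KO against WT at day 10. Beside the day 0 results, the Sam68 KO effect had the other sign for Cdkn1c (-1.16) and Dlk1 (-1.77) against WT. The Sam68 KO minus Quaking KO effect had it for Cdkn1c (-0.72), Dlk1 (-1.23) and Plagl1 (-1.22). Cdkn1c over time became -1.40 in all 3 lines. Members called in that model were 0 in Quaking KO against WT at day 10, 4 in Sam68 KO against WT on either day and 5 in Sam68 KO against Quaking KO at day 0.

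Members called otherwise moved as follows. Sam68 KO against WT at day 10 had 0 in a fit of only the compared groups or after thinning. Quaking KO against WT at day 0 had 1 with no filter, in a fit of only the compared groups and by DESeq2. Sam68 KO against Quaking KO at day 0 had 1 under RLE, under upper quartile scaling and without the 3 libraries of high top share. The Quaking KO interaction had 2 after thinning. The log2 ratio of Meg3 to Dlk1 between Sam68 KO and Quaking KO at day 10 was 1.76 without the 3 libraries of high top share. That left a lone Sam68 KO library of day 10.

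Leaving out each library gave 5 to 6 calls for Quaking KO against WT, 0 to 1 for Sam68 KO against WT and 4 to 6 for Sam68 KO against Quaking KO at day 10. At day 0 it gave 0 to 1, 0 to 1 and 1 to 2 for the same comparisons. Over time it gave 8 in Quaking KO, 8 in Sam68 KO and 8 to 9 in WT, and the interactions had 4 to 6 for Quaking KO and 0 for Sam68 KO. The log2 ratio of Meg3 to Dlk1 ran from -3.89 to -1.82 for Quaking KO minus WT, from -0.52 to 1.55 for Sam68 KO minus WT and from 2.87 to 4.18 for Sam68 KO minus Quaking KO. That of H19 to Igf2 ran from -1.83 to -0.64, from -1.21 to -0.28 and from 0 to 1.08. The replicate block kept 98 of 99 results and lost Meg3 in Quaking KO against WT at day 10 (-2.45, adjusted p = 0.0931).

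The counts over all features that moved by over 1.5 times, or in their split by direction, included these. Quaking KO against WT at day 10 had 3279 calls (1523 higher), 3333 under RLE (1820 higher) and 3288 under upper quartile scaling (1685 higher). It had 3326 by DESeq2 (1732 higher), 2147 after thinning, 1887 in a fit of the compared groups (965 higher) and 50 in the pool model. The last is the day 0 count. Sam68 KO against WT at day 10 had 24, and 95 with no filter, 78 by DESeq2 (41 of them higher, against 10 of 24), 11 in a fit of the compared groups and 1201 in the pool model. Sam68 KO against Quaking KO at day 10 had 3242 (1787 higher), 1982 after thinning and 3380 under RLE (1505 higher). At day 0 Quaking KO against WT had 50, and 31 under RLE or upper quartile scaling, 95 in a fit of the compared groups, 15 after thinning, 91 without the 3 libraries of high top share and 59 by DESeq2 (11 higher, against 0). Sam68 KO against WT had 173, and 268 with no filter, 297 in a fit of the compared groups, 67 after thinning and 1201 in the pool model. Sam68 KO against Quaking KO had 454 (349 higher), and 192 after thinning, 376 under RLE (237 higher), 368 under upper quartile scaling (222 higher), 500 by DESeq2 (304 higher) and 3242 in the pool model. The last is the day 10 count. Over time the pool model had 5571 in each line, against 8777 in Quaking KO, 8947 in Sam68 KO and 8906 in WT. The Quaking KO interaction had 1216 and 592 after thinning. The Sam68 KO interaction had 59, and 129 with no filter, 36 in a fit of the compared groups, 17 after thinning and 130 by DESeq2. Leaving out 1 library gave 10 to 53 calls for Sam68 KO against WT at day 10. At day 0 it gave 21 to 83 for Quaking KO against WT, 81 to 228 for Sam68 KO against WT and 239 to 598 for Sam68 KO against Quaking KO, and the Sam68 KO interaction had 16 to 96. Depth limits H19, Plagl1 at day 0 and Plagl1 in WT day 10 replicate 3 (4 counts). The cause of these movements was not tested.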
